A study of Mus musculus with 12 samples.

Results

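Meiotic recombination starts with programmed DNA double-strand breaks, and 5 genes of break formation were followed here in the mouse testis: Spo11, Prdm9, Mei1, Mei4 and Rec114. The members were chosen by gene symbol from the platform annotation. All 5 were found, among 22180 genes measured, each as the single-symbol transcript cluster of highest mean. Whole testes were taken at the age of 2 weeks from mice of the C57BL/6N strain, and the RNA of each was run on 1 Affymetrix whole-transcript array, 12 arrays in all. The groups were 3 Sox3-KO testes (KO), 3 Sox3-Sox2KI testes (KI), 3 wild-type littermates of KI mice (WT 1 to WT 3) and 3 wild-type littermates of KO mice (WT 4 to WT 6). Both mutant lines were made with CRISPR/Cas9. Sox3 is an X-linked SOXB1 transcription factor gene known from spermatogonia, and the name of the KI line describes Sox2, its close relative, placed at the Sox3 locus. The labels give no number of founder animals for either line, and they name litter origin but no single litters. The labels call the testes biological replicates.

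Breaks are made by SPO11, a relative of the archaeal topoisomerase VI catalytic subunit, working with a TOPOVIBL partner on chromosome axes. MEI4, REC114 and MEI1 are needed in mice for SPO11 to cut, and they act with IHO1 on the axes. PRDM9 is a zinc finger histone methyltransferase that marks the places where breaks occur. In the first wave of spermatogenesis these genes are known from spermatocytes entering meiotic prophase, a stage that testes of this age contain.

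The targeted gene was lower in KO testes. Sox3 was 6.573, 6.596 and 6.649 in the KO arrays on the log2 scale and 7.21 to 7.36 in the 6 WT arrays, a difference of -0.68 (SE 0.09, limma adjusted p = 0.0161). In the KI arrays Sox3 was 7.26, 6.75 and 6.95, with KI 1 inside the span of the WT arrays and KI 2 and KI 3 under it. Sox2 stayed near background in all groups, at 4.12 ± 0.10 in KO, 4.33 ± 0.18 in KI (SD, n = 3 each) and 4.04 ± 0.17 in WT testes (SD, n = 6). Background was set at 5.33, the 95th percentile of 1105 olfactory receptor genes, which most tissues do not express. The positions of the probes within both genes were not known here, so these levels say nothing of intact or inserted transcript. All 5 break formation genes lay above that limit on every array. The median over all genes was 6.27.

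The stretches of DNA before the starts of 3 members are shown, for Prdm9, which fell in KO testes, Mei4, whose difference between KO and WT testes was the smallest of the 5, and Rec114, whose window held the most motif matches. Each is the 250 bases before a transcript start in RefSeq on GRCm38.p6, 5′ to 3′ on the gene's strand, with motif matches in capitals. Prdm9 is from chr17:15564355-15564604 on the minus strand and is the outer of its 2 starts in the table. Mei4 is from chr9:81863420-81863669 on the plus strand. Rec114 is from chr9:58741560-58741809 on the minus strand.
Prdm9: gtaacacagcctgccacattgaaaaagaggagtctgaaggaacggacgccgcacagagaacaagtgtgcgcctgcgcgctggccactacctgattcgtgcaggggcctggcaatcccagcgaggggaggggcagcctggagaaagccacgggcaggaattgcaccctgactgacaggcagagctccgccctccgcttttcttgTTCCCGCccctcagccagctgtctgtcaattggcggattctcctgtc
Mei4: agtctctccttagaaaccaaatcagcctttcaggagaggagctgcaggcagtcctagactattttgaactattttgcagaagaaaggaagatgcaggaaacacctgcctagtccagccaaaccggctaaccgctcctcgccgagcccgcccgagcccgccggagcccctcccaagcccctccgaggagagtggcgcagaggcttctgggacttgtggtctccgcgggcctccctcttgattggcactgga
Rec114: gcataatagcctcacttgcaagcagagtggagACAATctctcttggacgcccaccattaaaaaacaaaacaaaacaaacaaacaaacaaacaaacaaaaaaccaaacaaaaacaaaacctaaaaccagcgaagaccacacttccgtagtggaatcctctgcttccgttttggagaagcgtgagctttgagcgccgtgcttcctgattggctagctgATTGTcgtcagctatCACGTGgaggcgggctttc

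Of the 5 members 4 had an entry, with 5 windows in all, and Spo11 had none. Both strands were searched for ACAAT, the core letters bound by SOX proteins, for the E-box CACGTG, for the E2F site GCGGGAA and for AGGTCA, the half-site of retinoic acid receptors. The searched motifs did not overlap in these windows. The Prdm9 window held 1 E2F match, which 3.82% of the 32851 windows of that length held. Rec114 held 2 matches of the SOX core and 1 E-box. At least 1 SOX core was found in 27.7% of windows, and at least 1 E-box in 6.02%. The share of windows with 2 SOX cores was not counted. In Mei1, whose window is not printed, 1 retinoic acid receptor half-site was found, as in 14.0% of windows. None of the searched letters occurred in the Mei4 window or in the inner Prdm9 window. These matches are letters in a window and were not tested as binding sites.

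In KO testes Spo11 and Prdm9 fell, and Mei1, Mei4 and Rec114 did not pass the test. Spo11 was 2.42-fold lower and Prdm9 1.48-fold lower than in WT testes. Over all genes, 2.34% were called lower and 2.52% higher in this comparison, 4.86% in all (limma, adjusted p under 0.05 over 22180 genes), and 24.2% had an unadjusted p under 0.05, as did Spo11, Prdm9 and Mei1. The differences of the other 3 genes were -0.24 for Mei1, -0.17 for Rec114 and -0.017 for Mei4. The median difference of the 5 genes was that of Mei1, beside a median of 0.043 over all genes.

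Spo11, the break-making enzyme, had log2 levels of 5.83, 6.99 and 6.08 in KO 1, KO 2 and KO 3. In KI testes it was 7.23, 7.74 and 7.76, and in the 6 WT testes 7.13 at the lowest, 7.63 at the median and 8.05 at the highest. All KO testes lay below all WT testes, with KO 2 much closer to the WT range than KO 1 and KO 3. The group means were 6.30 ± 0.61 in KO (SD, n = 3) and 7.58 ± 0.37 in WT (SD, n = 6), and the difference was -1.27 (SE 0.26, 95% interval -1.83 to -0.72, limma adjusted p = 0.0317).

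Prdm9, which directs breaks to their sites, was 7.29, 7.71 and 7.53 in KO 1, KO 2 and KO 3. It was 7.82, 7.92 and 8.19 in KI 1, KI 2 and KI 3, and 7.82 at the lowest, 8.10 at the median and 8.24 at the highest in WT testes. Here too the KO and WT ranges did not overlap, and the gap was narrow, with KO 2 just below WT 4. The means were 7.51 ± 0.21 in KO (SD, n = 3) and 8.08 ± 0.15 in WT (SD, n = 6), a difference of -0.57 (SE 0.12, 95% interval -0.82 to -0.32, limma adjusted p = 0.0318). All KO arrays lay below the whole WT range for 2 of the 5 members, against 4.59% of all genes, and above it for none of the 5, against 6.87% of all genes.

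**Figure D1:**
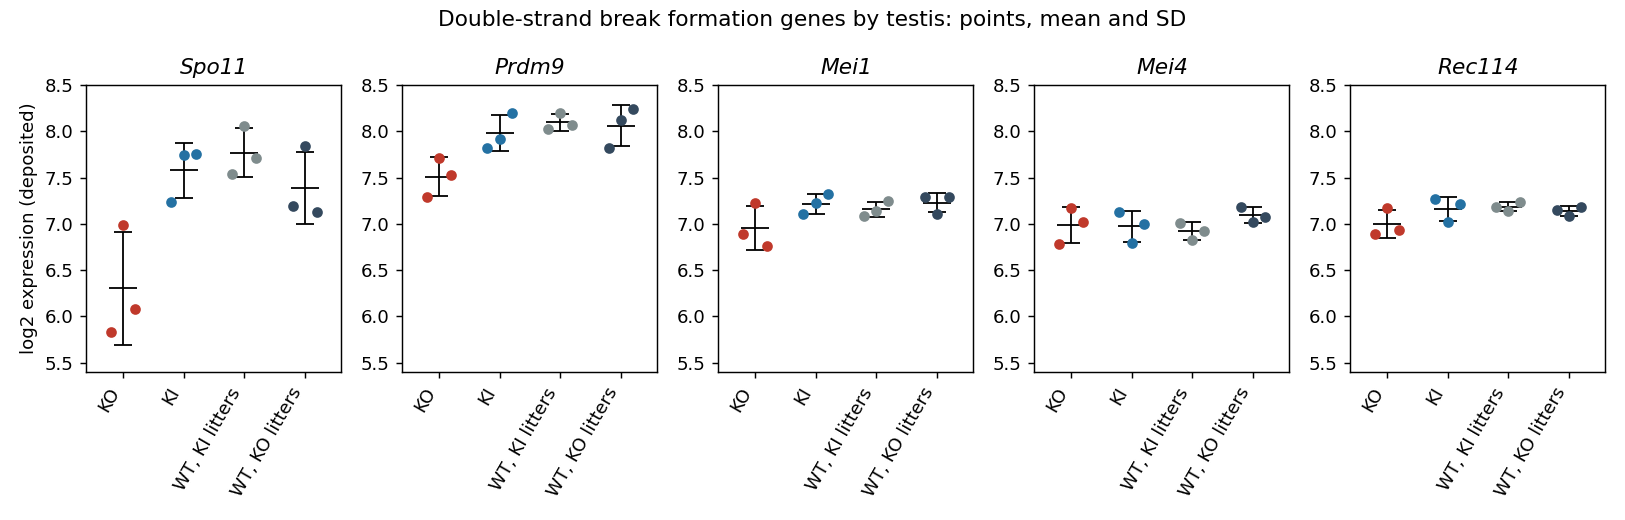
Deposited log2 expression of the 5 genes (y axis, same scale in all panels) in KO, KI and both WT groups (x axis, 3 testes each), with points for testes and bars for mean and SD. Spo11 in KO testes lies between 5.83 and 6.99, below every WT testis, while the Mei4 groups overlap.

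The calls of Spo11 and Prdm9 rested on the arrays in the fit. With each array left out in turn, both stayed past the threshold in 3 of 9 fits, those without WT 4, WT 6 or KO 2, and lost the call without WT 1, WT 2, WT 3, WT 5, KO 1 or KO 3. The Spo11 difference ran between -1.62 and -1.04 and its adjusted p between 0.00533 and 0.149. For Prdm9 the difference ran between -0.67 and -0.46 and the adjusted p between 0.0113 and 0.148. The number of genes called in the whole table moved with them, between 2 without KO 3 and 2323 without KO 2, against 1078 with all arrays. Exact two-sided permutation tests gave p = 0.0238 for both genes, the smallest value that 84 splits allow. After adjustment over 15 tests of 5 genes in 3 comparisons it was 0.179. A pass would have needed most of the 15 tests to give 0.0238, so this adjustment decides little for single genes.

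Against their own WT littermates alone, KO testes had lower levels of both genes in every array, but neither passed. The share of all genes with every KO array below these littermates was not counted, so this separation has no background to be read against. The differences were -1.08 for Spo11 (adjusted p = 0.161) and -0.55 for Prdm9 (adjusted p = 0.155) in the limma fit with 4 label groups. Over all genes, 0.00902% passed in that comparison, 0.00451% lower and 0.00451% higher, and 15.7% had an unadjusted p under 0.05, as did Spo11, Prdm9 and Mei1. Without KO 2 both passed there, Spo11 at -1.43 (adjusted p = 0.0252, against 0.0252 to 0.414 over 6 fits) and Prdm9 at -0.65 (adjusted p = 0.0485, against 0.0485 to 0.390). Over those 6 fits the genes passing in the whole table also moved, between 0 and 605, against 2 with all arrays. Against the WT testes of KI litters the difference in Spo11 was -1.47 (adjusted p = 0.027) and in Prdm9 -0.59 (adjusted p = 0.0357).

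Mei1, a gene first known from a mouse mutant that forms no normal breaks, was 6.89, 7.22 and 6.76 in KO 1, KO 2 and KO 3. In KI testes it was 7.11, 7.23 and 7.32, and in WT testes 7.09 at the lowest, 7.19 at the median and 7.29 at the highest. KO 1 and KO 3 lay below all WT testes and KO 2 lay among them. The difference of -0.24 (SE 0.10, 95% interval -0.45 to -0.02) did not pass (limma adjusted p = 0.163). Without KO 2 it was -0.37 and passed (adjusted p = 0.0245, against 0.0245 to 0.523 over the 9 fits with 1 array left out). Over all 22180 genes 2323 passed in that fit, against 1078 with all arrays.

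Rec114, whose protein joins MEI4 in a complex, also had its highest KO level in KO 2. It was 6.89, 7.17 and 6.93 in KO 1, KO 2 and KO 3, 7.26, 7.02 and 7.21 in KI testes, and 7.08 at the lowest, 7.17 at the median and 7.24 at the highest in WT testes. KO 2 stood at the WT median, and KO 1 and KO 3 lay below every WT and KI testis. The difference was -0.17 (SE 0.08, 95% interval -0.34 to 0.0048, limma adjusted p = 0.219) and did not pass in any of the 9 fits with 1 array left out.

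Mei4, the partner of REC114, was 6.79, 7.17 and 7.02 in KO testes, 7.12 in KI 1 and 6.79 in KI 2 with KI 3 between them, and 6.83 at the lowest, 7.01 at the median and 7.18 at the highest in WT testes. The 3 groups overlapped almost fully. The KO difference was -0.017 (95% interval -0.24 to 0.21, limma adjusted p = 0.941), an interval that leaves room for a fall of up to 0.24. The WT testes of KI litters (6.83 to 7.01) all lay below those of KO litters (7.02 to 7.18), a difference of -0.17 that did not pass (adjusted p = 0.891). How many of all genes were separated in this way was not counted. A second cluster annotated to Mei4 lay under the background limit, at 3.30 to 4.09 in KO, 3.24 to 3.36 in KI and 3.09 to 3.71 in WT testes, and is not read as Mei4 expression here.

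KO 2 had the highest level of the KO arrays for all 5 genes, and KO 1 the lowest for 4 of 5, Mei1 being the exception. KO 2 held that place for 27.8% of all genes and for 43.7% of genes with a negative KO difference. Among genes called lower in KO the share was 87.9%. How many of all genes were lowest in KO 1 was not counted. When KO 2 was left out, an alternative chosen after seeing the data, 4 of 5 members lay below the whole WT range, all but Mei4. Over all genes, 9.89% did so without KO 2.

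In KI testes none of the 5 genes differed from WT by the test. The differences were -0.0011 for Spo11 (95% interval -0.56 to 0.56), -0.10 for Prdm9 (-0.36 to 0.15), 0.023 for Mei1 (-0.19 to 0.24), -0.035 for Mei4 (-0.26 to 0.19) and 0.00084 for Rec114 (-0.17 to 0.17). The lowest limma adjusted p among them was 0.986. Over all genes, 0.0% were called by limma, and 5.24% had an unadjusted p under 0.05. No member had all its KI arrays outside the WT range, as 1.31% of genes had below it and 1.79% above it. The Spo11 interval is wide enough to hold a 1.47-fold change in either direction. KI 1, the array with Sox3 in the WT range, had the lowest KI levels of Spo11, Prdm9 and Mei1 and the highest of Mei4 and Rec114.

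Between the mutants, Spo11 and Prdm9 were higher in each KI testis than in each KO testis, without passing over all genes. KI Spo11 lay between 7.23 and 7.76, against 5.83 to 6.99 in KO, a difference of 1.27 (SE 0.30, 95% interval 0.63 to 1.92, limma adjusted p = 0.133). KI Prdm9 lay between 7.82 and 8.19, against 7.29 to 7.71 in KO, a difference of 0.47 (SE 0.13, 95% interval 0.18 to 0.76, limma adjusted p = 0.15). All KI arrays lay above all KO arrays for 9.56% of genes, and below them for 12.6%. The differences were 0.26 for Mei1 (adjusted p = 0.258), 0.17 for Rec114 (0.351) and -0.018 for Mei4 (0.95), with overlapping ranges. Without KO 2 Spo11 passed (difference 1.62, adjusted p = 0.0264, against 0.0264 to 0.343 over the 6 fits with 1 array left out). Over those fits between 0 and 721 genes passed in the whole table. No gene passed in this comparison with all arrays (0.0% of genes, limma), while 18.0% had an unadjusted p under 0.05, as did Spo11, Prdm9 and Mei1.

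KI testes against their own littermates gave -0.19 for Spo11 (limma adjusted p = 0.948), -0.12 for Prdm9, 0.058 for Mei1, 0.051 for Mei4 and -0.022 for Rec114, none with an unadjusted p under 0.05, which 4.51% of genes had. The WT testes of KI litters against those of KO litters gave 0.38 for Spo11 (limma adjusted p = 0.891) and none of the 5 with an unadjusted p under 0.05, which 5.29% of genes had. When each mutant was set against its own littermates, the KI effect minus the KO effect was 0.89 for Spo11 (95% interval -0.0011 to 1.78) and 0.43 for Prdm9 (95% interval -0.0033 to 0.86). For Mei1, Mei4 and Rec114 it was 0.33, 0.15 and 0.12. None passed over all genes (the lowest limma adjusted p was 0.848), so a difference between the mutant effects was not shown for these genes. In that comparison 0.0% of genes passed and 5.83% had an unadjusted p under 0.05, which none of the 5 genes did.

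**Figure D2:**
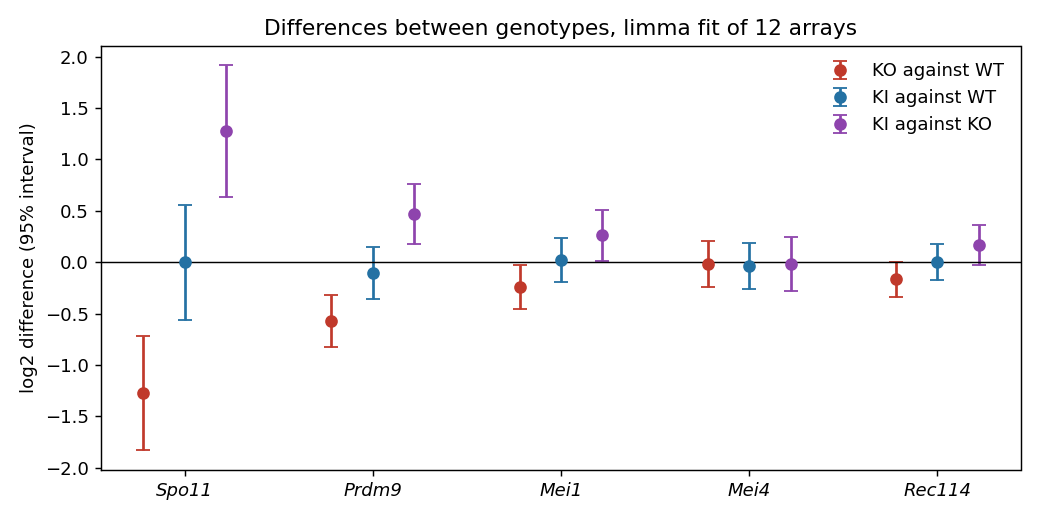
Log2 differences (y axis) of the 5 genes (x axis) for KO against WT, KI against WT and KI against KO, with points for limma estimates and bars for 95% intervals. The KO intervals of Spo11 (-1.83 to -0.72), Prdm9 and Mei1 lie below 0, and every KI interval against WT spans 0.

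The 5 genes also differed in how much they varied among WT testes. Spo11 had an SD of 0.37 over the 6 WT arrays, above that of 96.1% of all genes. Rec114 had 0.052, above 5.23% of genes, and Mei1, Mei4 and Prdm9 had 0.092, 0.12 and 0.15. The 2 lowest WT levels of Spo11 were those of WT 6 (7.13) and WT 4 (7.19), both from KO litters. The same 2 testes had the lowest WT means of 8 pachytene spermatocyte marker genes, at 6.52 and 6.67, against 7.15 to 7.66 in the other WT testes. Of these 2 testes WT 4 had the lowest WT level of Prdm9 (7.82) and WT 6 the highest (8.24), and both had the highest WT levels of Mei1 (7.29 each).

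Other meiotic genes were lower in KO testes as well, so each member was set against the mean of 7 measured genes of the chromosome axis and synaptonemal complex on the same array. That mean was 9.37 ± 0.26 in KO (SD, n = 3), 9.75 ± 0.10 in KI (SD, n = 3) and 9.81 ± 0.072 in WT testes (SD, n = 6). Relative to it, Spo11 was lower in KO than in WT testes by a log2 difference of -0.84, and Prdm9 by -0.13. Relative to the same mean Mei1, Rec114 and Mei4 were higher in KO testes by 0.20, 0.27 and 0.42. The axis mean itself differed by -0.44 between KO and WT testes, so a gene that did not change rises on this scale. The share of all genes whose KO and WT arrays did not overlap on it was not counted. For Spo11, Mei4 and Rec114 the KO and WT arrays did not overlap on this relative scale, and each gave p = 0.0238 in an exact two-sided permutation test, the lowest that 84 splits can give. Prdm9 and Mei1 gave 0.119 and 0.167. After adjustment over 15 tests no value passed (the lowest was 0.119). A pass would have needed most of the 15 tests to give 0.0238, so this adjustment decides little for single genes. In KI testes the relative differences from WT lay between -0.036 and 0.090.

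The choice of companion genes mattered for Prdm9. Relative to 9 strand exchange genes, which fell further, Spo11 was still lower in KO testes (-0.34, exact permutation p = 0.0714), while Prdm9 was higher (0.36, exact permutation p = 0.0714). Mei1, Rec114 and Mei4 were higher by 0.70, 0.77 and 0.92 on that scale. The pachytene markers, a scale added after seeing the data, gave -0.36 for Spo11, 0.34 for Prdm9 and 0.67 to 0.90 for the other genes.

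**Figure D3:**
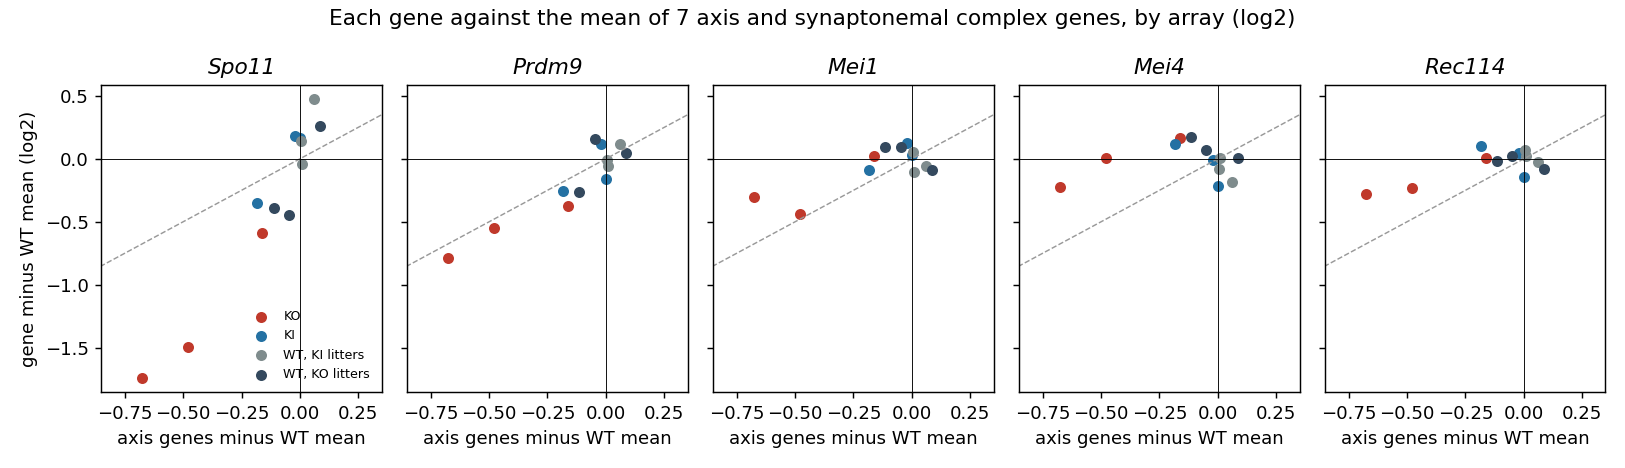
Log2 level of each gene minus its WT mean (y axis) against the mean of 7 axis and synaptonemal complex genes minus its WT mean (x axis), 1 point per testis. The dashed line marks equal change. KO testes lie below it for Spo11, near it for Prdm9 and above it for Mei4 and Rec114.

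Several partners of the break machinery fell in KO testes. Of 5 measured partners 4 fell, none rose and 1 did not pass, with a median difference of -0.55, against 2.34% of all genes called lower. Hormad1, an axis protein that supports break formation, was 7.72 ± 0.58 in KO (SD, n = 3) and 9.06 ± 0.41 in WT (SD, n = 6), a difference of -1.34 (limma adjusted p = 0.031). Its relative Hormad2 changed by -0.98. Gm960, which encodes the SPO11 partner TOPOVIBL, was 7.22 ± 0.18 in KO and 7.77 ± 0.14 in WT testes (-0.55, adjusted p = 0.032). Iho1, the axis anchor of MEI4 and REC114, was 8.60 ± 0.27 in KO and 9.03 ± 0.083 in WT testes (-0.43, adjusted p = 0.0378). Tex15, a germ cell gene needed for break repair in mice, did not pass (-0.18, adjusted p = 0.316). Ankrd31, another partner of REC114, was not analysed here.

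None of 7 genes that act with PRDM9 or at its sites passed in KO testes, and their median difference was -0.058. The chromatin remodeller Hells (-0.21, limma adjusted p = 0.0757) and the RNA-binding protein gene Ewsr1 (0.025, adjusted p = 0.889) had the highest levels. The readers of PRDM9 marks Zcwpw1 and Zcwpw2 had differences of -0.33 and -0.41 (adjusted p = 0.0645 and 0.0803). Cdyl went the other way (0.24, limma adjusted p = 0.082), and 4 of the 7 genes had negative differences.

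Among 13 genes of break signalling and end processing 3 fell, none rose and 10 missed the threshold, and the median was -0.11. Mdc1, which spreads the damage signal along chromatin, was 9.18 ± 0.31 in KO and 10.14 ± 0.26 in WT testes (-0.96, limma adjusted p = 0.0267). The kinase gene Atr (-0.73) and its activator Topbp1 (-0.42) fell too, whereas H2ax, whose phosphorylation marks breaks, did not pass (-0.28, adjusted p = 0.0593). Atm, the kinase that limits SPO11 activity in mice, had a difference of -0.064 (adjusted p = 0.643).

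Of 9 genes of strand exchange, the step after breaks, 8 fell, none rose and 1, Mnd1, did not pass (-0.13), with a median of -0.81. Those of smallest p were Rad51ap2 (-1.11), Spata22 (-1.25), a partner of the single-strand binding protein MEIOB, 4930432K21Rik (-0.42), also known as Brme1, and Hsf2bp (-0.81), whose product joins BRME1 and BRCA2 at breaks. In the axis and synaptonemal complex list 3 of 7 fell, none rose and 4 missed the threshold, and the median was -0.35. Sycp2 (-0.98), the cohesin subunit gene Stag3 (-0.57) and Sycp1 (-0.75) fell, and Smc1b did not pass (-0.35, adjusted p = 0.0515). Of 5 meiotic entry genes 3 fell, Meioc (-0.84), Ythdc2 (-0.64) and Dazl (-0.39), and Rec8 (-0.17, adjusted p = 0.231) and Stra8 (-0.17, adjusted p = 0.337) did not pass.

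In KI testes, against WT, none of the measured genes of these 6 lists passed by limma, and the list medians lay between -0.096 and 0.011. Dmc1, the meiotic recombinase gene, for example averaged 9.35 in KI and 9.47 in WT testes (-0.12, adjusted p = 0.986). Between the mutants none passed either. Iho1 averaged 9.16 in KI and 8.60 in KO testes (0.56, adjusted p = 0.133).

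**Figure D4:**
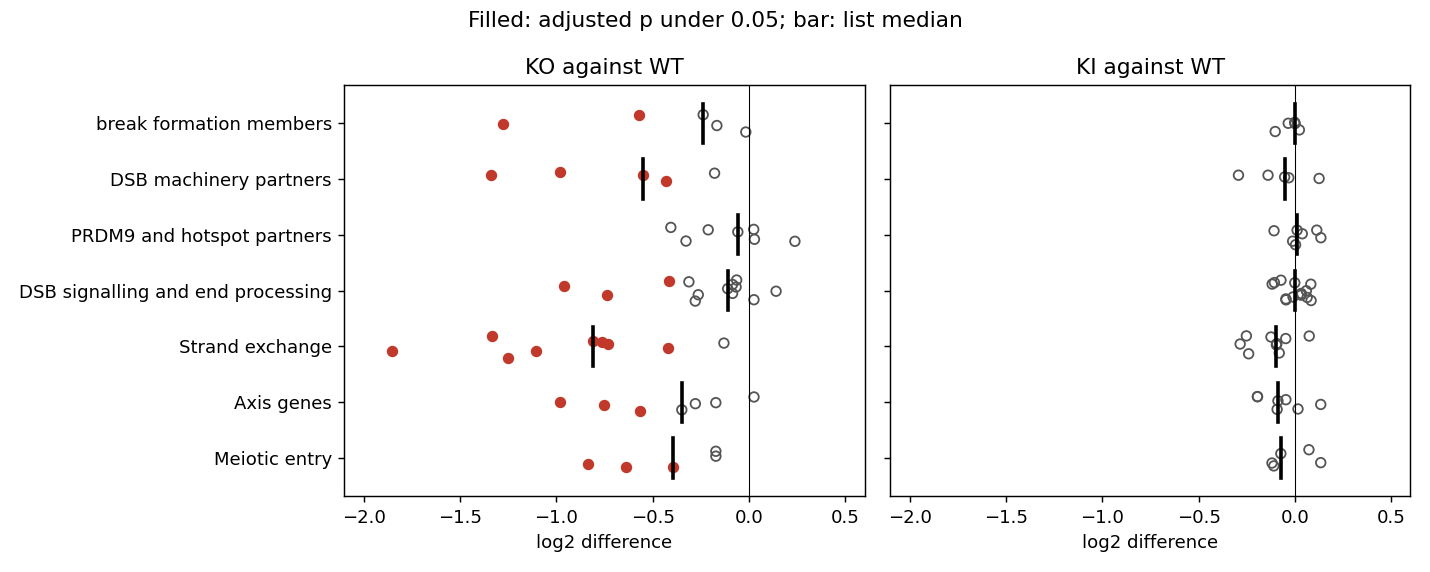
Log2 differences (x axis) of the 5 break formation genes and of 6 lists of related genes (rows), KO against WT on the left and KI against WT on the right, with 1 point per gene, filled where the adjusted p is under 0.05, and a bar at the median. In KO testes 8 of 9 strand exchange genes and 4 of 5 break machinery partners are filled, and in KI testes none is.

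Some markers of other cells differed between KO and WT in these whole testes, and none passed in KI against WT or KI against KO. Over all genes, 2.52% were called higher and 2.34% lower in KO against WT. In bulk tissue, fewer cells of a type and less RNA per cell cannot be told apart. The pachytene marker mean was 5.94 to 6.62 in KO, 6.81 to 7.24 in KI and 6.52 to 7.66 in WT testes, and 3 of its 8 genes fell in KO testes, none rising. The mean of 7 markers of undifferentiated spermatogonia was 7.12 to 7.21 in KO, 7.02 to 7.06 in KI and 6.89 to 6.94 in WT testes. In KO testes 3 of the 7 rose, Gfra1 (0.70), Ret (0.71) and Etv5 (0.35), and 4 did not pass. Of those, 2 had negative differences, Id4 (-0.36, limma adjusted p = 0.325) and Bcl6b (-0.012). The mean of 5 differentiating spermatogonia markers was 8.44 to 8.56 in KO, 8.60 to 8.67 in KI and 8.59 to 8.72 in WT testes, with none passing. Of 8 Sertoli cell markers 1 rose, Fshr, with list means of 9.86 to 10.16 in KO and 9.67 to 9.92 in WT testes. Of 4 Leydig cell markers 1 rose, Hsd3b1, with means of 9.16 to 9.44 in KO and 7.81 to 9.03 in WT testes. No marker of peritubular cells (5 genes), endothelium (5), macrophages (6), erythroid cells (1) or the epididymis (4) passed. The part of these shifts in the levels of Spo11 and Prdm9 was not tested.

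The genes with the most similar profiles were sought for Spo11 and Prdm9, by the root mean square difference over the 12 arrays between profiles each centred on its own mean, among 14542 genes above background. For Spo11 they were BC051142 (0.104), Cfap69 (0.127), a gene of cilia and sperm tails, and Msh4 (0.134), which encodes a meiotic crossover factor. The median gene differed by 0.688, close to the SD of Spo11 itself over the 12 arrays (0.690). Such a median is no background for the closest of many genes. Msh4 was 6.46 ± 0.56 in KO (SD, n = 3), 7.53 ± 0.22 in KI (SD, n = 3) and 7.74 ± 0.37 in WT testes (SD, n = 6). Like Spo11 it was highest of the KO arrays in KO 2, which follows from its choice by likeness. For Prdm9 they were 1700048O20Rik (0.0934), Ddx43 (0.0977), a germ cell helicase gene, and Polq (0.112), a DNA polymerase gene of break repair, with a median of 0.320 over all ranked genes. The likeness describes these 12 arrays, which differ in genotype and in the levels of cell markers, and its cause was not tested.

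**Figure D5:**
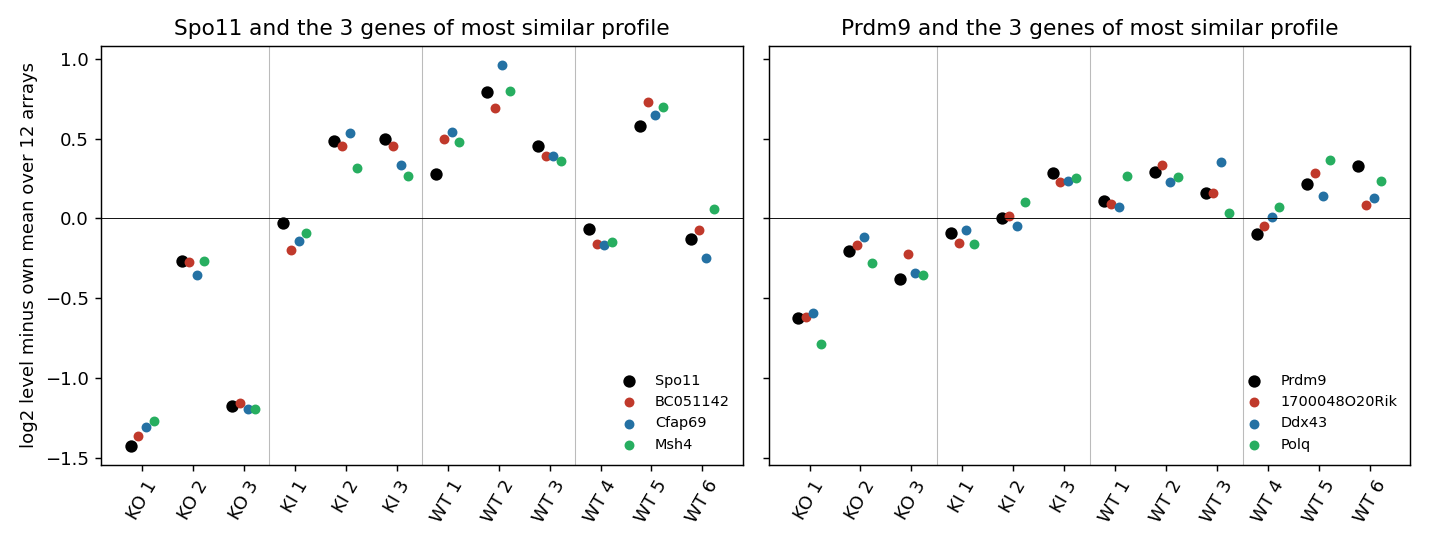
Log2 level minus the gene's own mean over 12 arrays (y axis) in each testis (x axis), for Spo11 (left) and Prdm9 (right) in black with the 3 genes of most similar profile in colour. In the left panel the Spo11, BC051142, Cfap69 and Msh4 points are close together in each array, lowest in KO 1 and KO 3.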

How the data were processed

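The deposited values were log2 expression per transcript cluster for 41345 clusters (0.915 to 13.9). The submitters' processing notes name Affymetrix Expression Console, RMA and Partek 6.6 without giving their roles. Quantile scaling, a part of RMA, makes a value relative to the rest of its array. In the platform annotation 23521 clusters had 1 symbol, 1814 several and 16010 none. Of 111 list symbols, genes in several lists counted in each, 99 were measured, and the others were not analysed here. The test was limma 3.58.1 in R 4.3.3 (lmFit and eBayes, two-sided) on all 12 arrays in 1 fit of 3 genotype groups, with Benjamini-Hochberg adjustment over 22180 genes at 0.05, or of 4 label groups for comparisons by litter. Exact permutation tests used scipy 1.17.1. The fit was tested on simulated data. Precision is limited by the number of arrays.

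The members and lists were chosen with earlier results of these data known. The rule for named genes took all 5 members and, from each list, up to 4 genes of smallest p where any passed, otherwise the 2 of highest level. It took the 3 most similar profiles for members that passed or had an SD over 0.3. Genes outside that rule, namely Zcwpw1, Zcwpw2, Cdyl, Atm, Mnd1, Tex15, Stra8 and the named cell markers, were picked with their values in view. The alternatives changed the scaling (median centring or quantiles), the filter on dim genes, array weights, the prior, the controls, a replicate block and the arrays left out.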

Additional observations from a re-analysis of the deposited data

How the results depend on the processing

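Differences are log2 values. With only the arrays of both groups compared in the limma fit, KO against WT was -1.27 for Spo11 and -0.57 for Prdm9 (adjusted p = 0.0600 for each), and 30 genes passed. With WT littermates only it was -1.08 and -0.55, neither passing, and 2 genes passed. In KO against WT 2201 genes passed after the filter at background and 2048 with the robust trended prior (1078 as reported). In KI against KO the same settings gave 2 and 5 (0 as reported). Over these alternatives and those with 1 array left out, adjusted p ran between 0.00376 and 0.161 for Spo11 and between 0.00888 and 0.155 for Prdm9 in KO against WT. The lowest value for Spo11 came from the fit with the replicate block, which sets KO against the WT of KI litters only.

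Several differences near 0 changed sign without passing. KO against WT, Mei4 was 0.069 with WT of the other litter origin and 0.33 in its second cluster. KI against WT, Mei1 was -0.012 and Spo11 0.19 with WT of the other litter origin, Mei4 was 0.051 and Rec114 -0.022 with littermates only, and Rec114 was -0.0012 with median centring, -0.014 with a new quantile normalization and -0.0015 with array weights. KI against KO, Mei4 was 0.0020 with median centring and 0.0054 with array weights.

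Same-numbered arrays of KO, KI and the WT of KI litters correlated at -0.035 to 0.159 in their deviations, so the numbers were not taken to pair the testes. The WT testes of KO litters share their replicate numbers with no other array, so with a replicate block they add nothing to these differences. WT in that fit therefore means the WT of KI litters only. With the replicate block, KO against WT was -1.47 for Spo11, -0.59 for Prdm9 and 0.069 for Mei4, with 1468 genes passing. The differences were those of the fit with WT of the other litter origin. KI against WT it was 0.051 for Mei4 and -0.022 for Rec114, and KI against KO 1.27 for Spo11 (limma adjusted p = 0.0338), with 247 genes passing. No paired analysis was possible because KO testes and their own littermates share no replicate numbers, for KO against littermates, the WT groups and the mutant effects.

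Relative to strand exchange genes, KO against WT was -0.34 for Spo11, 0.36 for Prdm9, 0.70 for Mei1, 0.92 for Mei4 and 0.77 for Rec114, and relative to pachytene markers -0.36, 0.34, 0.67, 0.90 and 0.75. KI against KO the values were 0.47, -0.34, -0.54, -0.82 and -0.64 relative to strand exchange genes, and 0.51, -0.29, -0.50, -0.78 and -0.59 relative to pachytene markers. The cause of these changes was not tested.

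With each array left out in turn, KO against WT ran between -1.62 and -1.04 for Spo11, -0.67 and -0.46 for Prdm9, -0.37 and -0.14 for Mei1, and -0.11 and 0.086 for Mei4, and between 2 and 2323 genes passed. KI against WT ran between -0.091 and 0.17 for Spo11, -0.21 and -0.024 for Prdm9 (-0.21 without KI 3), -0.028 and 0.079 for Mei1, -0.11 and 0.054 for Mei4, and -0.049 and 0.074 for Rec114. KI against KO ran between 1.04 and 1.62 for Spo11 and -0.12 and 0.072 for Mei4, with 0 to 721 genes passing. Against own littermates Mei4 ran between -0.19 and 0.00015 in KO and between -0.025 and 0.14 in KI, and Rec114 between -0.072 and 0.051 in KI. Prdm9 ran between -0.085 and 0.13 in WT of KI litters against WT of KO litters.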

Other observations

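KO 2, the highest KO testis for each of the 5 break formation genes, held that place for a larger share of the genes called lower in KO than of all genes. It had the highest of the 3 KO levels for 27.8% of all 22180 genes, for 43.7% of the 8910 genes with a negative KO difference and for 87.9% of the 520 genes called lower in KO. In the pachytene marker mean KO 2 was at 6.62, against 5.94 in KO 1 and 6.21 in KO 3. Its Sox3 level, 6.596, lay between those of KO 1 (6.573) and KO 3 (6.649).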
